A study of Bos taurus with 21 samples.

Results

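Small leucine-rich proteoglycans are secreted proteins of the connective tissue around and between muscle fibres. Their curved leucine-rich repeat domain binds collagen, and most carry 1 or more sulphated sugar chains. They bind to the surface of forming collagen fibrils, limit or guide the width to which fibrils grow, and several also bind transforming growth factor beta or cell surface receptors. In foetal muscle they are made mainly by the fibroblasts of the sheaths that become epimysium, perimysium and endomysium, and by tendon cells.

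The genes described are the 8 members *DCN*, *BGN*, *ASPN*, *LUM*, *FMOD*, *PRELP*, *KERA* and *OGN*, among 12538 genes that could be named on the array. Every non-control probe whose transcript accession belongs to one of them in the cattle annotation was taken, which gave 23 probes, of which *DCN* had 9, *BGN* and *KERA* 3 each, *LUM*, *OGN* and *PRELP* 2 each and *ASPN* and *FMOD* 1 each. The rule for the probes used no measured value, although the family was picked with earlier results of these data known. Of the 23 probes, 19 passed the filter on dim probes, and they covered 7 of the 8 genes. *PRELP* lay under the filter. Each gene is given below by its brightest tested probe, or for *PRELP* by its brightest probe. Values are log2 intensities scaled to the 75th percentile of each array, so a difference of 1 is a 2-fold difference, and the level of a probe was not compared with that of another gene's probe.

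The foetuses came from purebred matings by artificial insemination in a pair of French beef breeds. Blonde d'Aquitaine (BA), whose heavy muscling has been traced in part to *MSTN*, was set against Charolais (CH), and the labels give the breed of a foetus but not its genotype. RNA was taken at 110, 180, 210 and 260 days post-conception (dpc), with 3 foetuses in BA at 110 and 210 dpc and in CH at 180, 210 and 260 dpc, and 2 in BA at 180 and 260 dpc and in CH at 110 dpc. The 21 foetuses, 8 male and 13 female, had 2 sires per breed and no treatment. The labels name the muscle as Longissimus thoracis, whereas the methods of the study name the m. Semitendinosus, and the muscle could not be told from the data.

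Each array had between 29017 and 34501 probes well above background, out of 43653. There were 6 slides, each scanned on 1 of 3 days. Slide 5 held 4 males and no female, slides 1 and 3 held only females, and no slide held both 110 and 260 dpc arrays of 1 breed. All 6 tested markers of skeletal muscle fibres, among them *ACTA1* (skeletal actin) and *CKM* (muscle creatine kinase), were well above background on all 21 arrays, as were all 8 tested markers of fibroblasts. Each array is 1 foetus, so p-values measure the spread between foetuses.

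Of the 8 genes, 7 were lower near term than at 110 dpc. With the breeds averaged, 7 of the 7 tested members fell from 110 to 260 dpc, against 30.8% of all 20132 tested probes called lower and 64.1% called in either direction. The log2 differences ran from −2.23 to −0.61 with a median of −1.57, whereas the median over all tested probes was 0.035. Of the 19 tested probes of these genes, 17 fell. For 4 genes all 260 dpc arrays of both breeds lay below all 110 dpc arrays, a pattern that 21.8% of tested probes had. A call is an adjusted p under 0.05 from limma with Benjamini-Hochberg adjustment over all tested probes. In whole-muscle RNA, fewer cells of a type and less RNA per cell cannot be told apart.

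**Figure D1:**
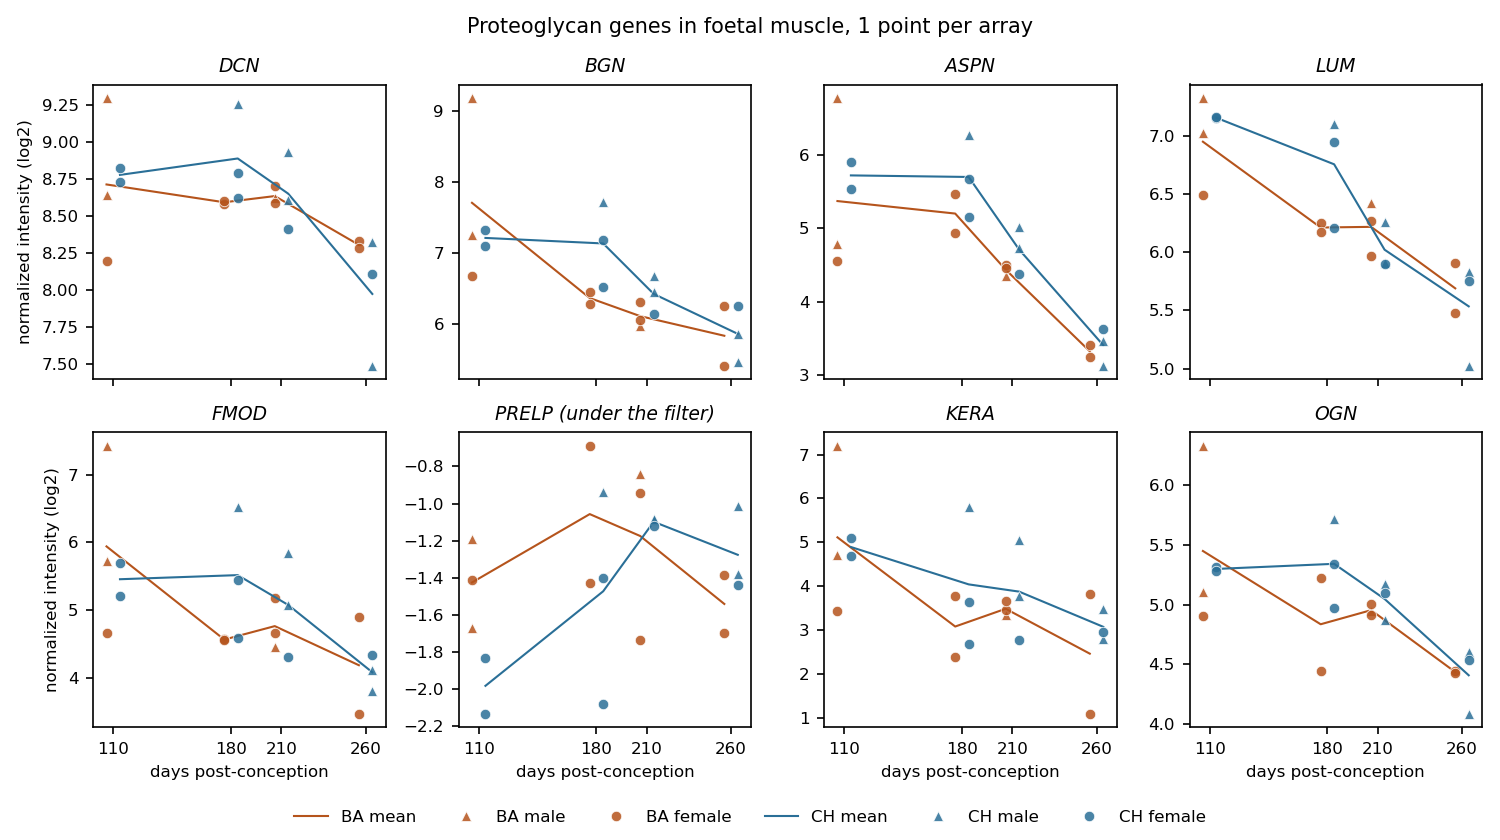
Normalized log2 intensity (vertical axis) of the 8 genes by days post-conception (horizontal axis), with 1 point per array, triangles for males and circles for females, and lines through the means of BA and CH. The 260 dpc points lie under all 110 dpc points for *BGN*, *ASPN*, *LUM* and *OGN*, and the highest 110 dpc point of the 7 genes other than *PRELP* is BA replicate 1, a male.

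Class I members carry chondroitin or dermatan sulphate chains, apart from asporin, which lacks them. *DCN* encodes decorin, the proteoglycan best known for binding the surface of collagen I fibrils and for binding transforming growth factor beta. On the individual BA arrays it read 9.30, 8.20 and 8.64 at 110 dpc, 8.59 and 8.60 at 180 dpc, 8.70, 8.59 and 8.62 at 210 dpc, and 8.33 and 8.28 at 260 dpc. On the CH arrays it read 8.73 and 8.83, then 8.79, 8.62 and 9.26, then 8.41, 8.61 and 8.93, and finally 7.48, 8.32 and 8.11. The stages overlapped because BA replicate 2, the lowest 110 dpc array, lay under 3 of the 5 arrays at 260 dpc, and CH replicate 1 at 260 dpc was the lowest of the 21. *DCN* fell by 0.61 (SE 0.19, limma adjusted p = 0.0104) from 110 to 260 dpc, the smallest change of the 7 genes.

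*BGN* encodes biglycan, a close relative of decorin with a pair of sugar chains. Its BA arrays read 9.19, 6.68 and 7.25 at 110 dpc, 6.28 and 6.45 at 180 dpc, 6.05, 6.30 and 5.97 at 210 dpc, and 6.26 and 5.40 at 260 dpc. Its CH arrays read 7.33 and 7.10, then 7.18, 6.51 and 7.71, then 6.14, 6.45 and 6.67, and then 5.46, 5.86 and 6.25. All 260 dpc arrays lay below all 110 dpc arrays, and BA replicate 1 stood well above the other 110 dpc arrays. The fall was 1.61 (SE 0.36, limma adjusted p = 0.000812).

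*ASPN* encodes asporin, which binds collagen and can hold back its mineralisation. In BA it read 6.78, 4.56 and 4.78 at 110 dpc, 5.46 and 4.94 at 180 dpc, 4.50, 4.46 and 4.35 at 210 dpc, and 3.41 and 3.24 at 260 dpc. In CH it read 5.54 and 5.90, then 5.67, 5.16 and 6.27, then 4.38, 4.73 and 5.02, and then 3.12, 3.47 and 3.63. The 260 dpc arrays were below every array of the 3 earlier stages. *ASPN* fell by 2.18 (SE 0.33, limma adjusted p = 1.62e-05).

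Class II members are lumican, fibromodulin, keratocan and prolargin, of which the first 3 carry keratan sulphate chains. *LUM* encodes lumican, which regulates fibril assembly in cornea, skin and tendon. It read 7.32, 6.49 and 7.03 in BA and 7.15 and 7.16 in CH at 110 dpc, and 5.90 and 5.47 in BA and 5.02, 5.83 and 5.76 in CH at 260 dpc. Between them, the 5 arrays at 180 dpc ran from 6.17 to 7.11 and the 6 at 210 dpc from 5.90 to 6.42. The 110 and 260 dpc arrays did not overlap. The fall of 1.44 (SE 0.20) had the lowest adjusted p of the 7 genes (limma adjusted p = 7.24e-06).

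*FMOD* encodes fibromodulin, a tendon and cartilage proteoglycan that binds collagen near its cross-linking sites. It read 7.43, 4.66 and 5.73 in BA and 5.70 and 5.21 in CH at 110 dpc, and 4.90 and 3.46 in BA and 3.79, 4.11 and 4.33 in CH at 260 dpc. BA replicate 2 at 110 dpc lay under BA replicate 1 at 260 dpc, so the stages overlapped by these arrays. *FMOD* fell by 1.57 (SE 0.46, limma adjusted p = 0.00686).

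*KERA* encodes keratocan, which is abundant in the cornea and also made in tendon. It read 7.20, 3.43 and 4.71 in BA and 5.11 and 4.68 in CH at 110 dpc, and 3.83 and 1.10 in BA and 2.80, 3.48 and 2.95 in CH at 260 dpc. It varied most within groups of the 8 genes, with a within-group SD of 1.25 over 13 degrees of freedom against 0.32 for *DCN*. *KERA* fell by 2.23 (SE 0.71, limma adjusted p = 0.0110), the largest difference of the 7 with the widest interval, from −3.73 to −0.73. Without BA replicate 2 at 260 dpc, its lowest array, the difference was −1.55 (limma adjusted p = 0.0899), and that of *FMOD* was −1.21 (limma adjusted p = 0.0528), so both calls were lost. Among female foetuses alone neither was called (*KERA* −1.45, limma adjusted p = 0.101; *FMOD* −0.80, limma adjusted p = 0.109), nor was *KERA* with sire as a block (−1.70, limma adjusted p = 0.0606).

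*OGN*, the class III member, encodes osteoglycin, also called mimecan. It read 6.33, 4.91 and 5.11 in BA and 5.31 and 5.28 in CH at 110 dpc, and 4.44 and 4.43 in BA and 4.09, 4.60 and 4.54 in CH at 260 dpc. The stages did not overlap. *OGN* fell by 0.95 (SE 0.23, limma adjusted p = 0.0015).

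*PRELP* encodes prolargin, which joins collagen to the heparan sulphate proteoglycans of basement membranes. Its brightest probe was well above background on all 21 arrays but dim, from −2.13 to −0.69, and was not among the tested probes. In a fit of all 43653 probes its difference between 260 and 110 dpc was 0.30 (95% interval −0.19 to 0.78, limma adjusted p = 0.313). With normexp background correction it passed the threshold at 0.29 (limma adjusted p = 0.0262). The second probe was well above background on 17 arrays and rose by 1.15 (SE 0.32, limma adjusted p = 0.00812) in that fit, from −2.77 in BA and −2.19 in CH at 110 dpc to −1.36 and −1.29 at 260 dpc. The correlation of the 2 probes within groups was 0.036, so *PRELP* has no settled course on these arrays.

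**Figure D2:**
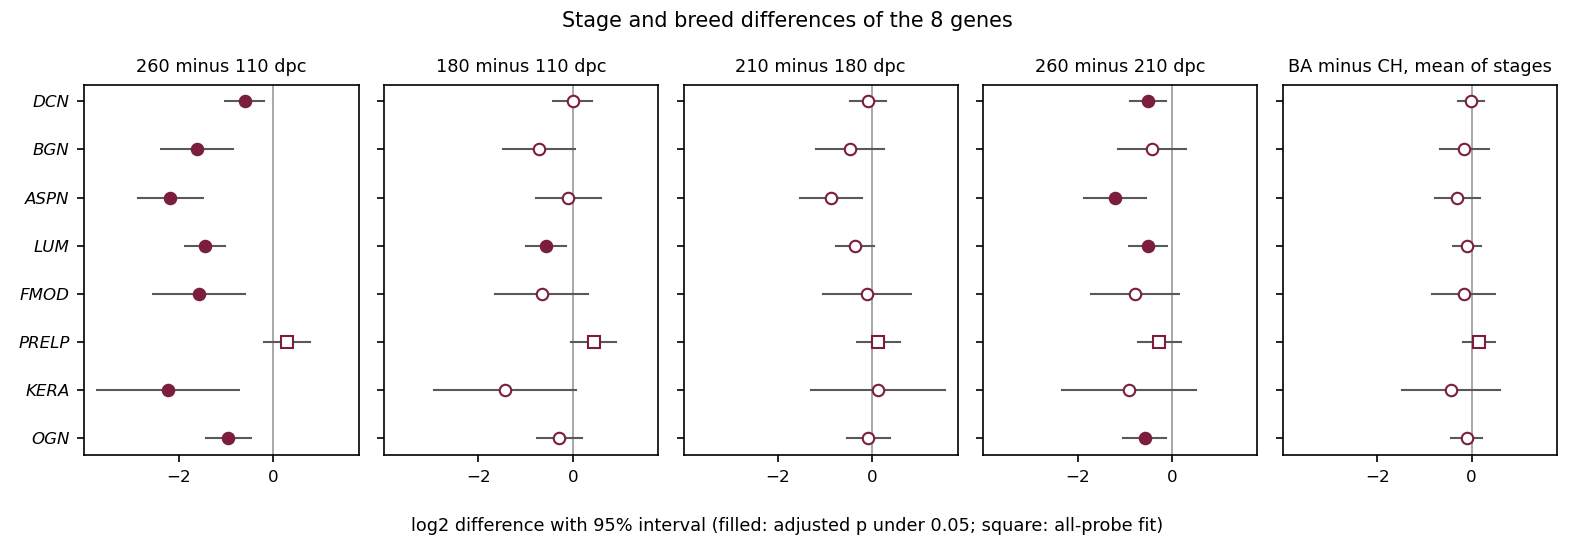
Log2 differences (horizontal axis) of the 8 genes (rows) with their 95% intervals, for 260 minus 110 dpc, for the 3 steps between neighbouring stages, and for BA minus CH averaged over stages. Filled symbols passed an adjusted p under 0.05 and the square is *PRELP* from the fit of all probes. Filled symbols stand at 7 genes in the first panel, 1, 0 and 4 in the steps, and 0 for breed.

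The probes of a gene mostly moved alike. Of the 9 *DCN* probes, 8 fell by 0.50 to 0.88, and the dimmest, A_73_P040326, gave −0.018 (limma adjusted p = 0.914). Its correlation with the brightest *DCN* probe within groups was 0.644, against 0.871 to 0.983 for the other 7. For *BGN* the second probe, A_73_P105226, gave −0.052 (limma adjusted p = 0.861) with a correlation of 0.299. Among its tested probes, the fall of *BGN* therefore rests on the brightest. The third probe, A_73_P298381, lay under the filter but was well above background on all 21 arrays, with a correlation of 0.581. Its means were 0.40 in BA and 0.56 in CH at 110 dpc, and −0.16 and −0.11 at 260 dpc. Between these stages its group means ran from −0.25 to 1.03. Which transcripts these probes detect was not tested. The second probes of *LUM* and *OGN* fell by 1.75 and 1.44, and the second tested probe of *KERA* by 2.31.

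The number of members called differed between the steps, which span unequal numbers of days and were not tested against each other. The median difference of the 7 was −0.57 from 110 to 180 dpc, −0.12 from 180 to 210 dpc and −0.58 from 210 to 260 dpc. Because the steps share arrays with each other and with the comparison of 260 and 110 dpc, their values are set side by side and were not correlated. Between 110 and 180 dpc, 1 of the 7 members fell, against 11.4% of tested probes called lower. That was *LUM* (difference −0.57, SE 0.20, limma adjusted p = 0.0485), whose call was lost in females only (−0.43), with sex as a covariate (−0.52), with median scaling (−0.55), with the unscaled deposited log2 table (−0.55), with a filter on detection and with none, and in 16 of the 21 fits without 1 array. Differences for *BGN*, *FMOD* and *KERA* were −0.71, −0.66 and −1.44 with limma adjusted p of 0.169, 0.333 and 0.158, and those of *DCN*, *ASPN* and *OGN* were −0.0049, −0.096 and −0.28. With slide as a block *KERA* was called as well (−1.54, limma adjusted p = 0.0486). In BA the step was −1.34 for *BGN*, −1.38 for *FMOD* and −2.03 for *KERA*, and in CH it was −0.078, 0.061 and −0.85. The BA values were smaller in size without replicate 1 at 110 dpc, at −0.60, −0.63 and −0.99. They were larger without replicate 2 at 110 dpc, at −1.86, −2.02 and −2.87. Whether this step differed between the breeds was not tested. Without BA replicate 2 at 110 dpc, *BGN* was called on the mean of the breeds (−0.97, limma adjusted p = 0.0423). Within single slides, 21 of 28 differences of the 7 genes between 180 and 110 dpc were negative. These values come from 4 pairs of arrays and from genes that varied together, so they are not independent of each other.

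Between 180 and 210 dpc, 0 of the 7 were called by limma and 1, *ASPN* (−0.88, limma adjusted p = 0.0853), had an unadjusted p under 0.05, against 9.68% of tested probes called and 24.8% at an unadjusted p under 0.05. Their differences ran from −0.88 to 0.12. Between 210 and 260 dpc, 4 of the 7 fell, against 19.9% of tested probes called lower. These were *ASPN* by 1.21 (SE 0.31, limma adjusted p = 0.00448), *OGN* by 0.58 (SE 0.22, limma adjusted p = 0.0385), *DCN* by 0.51 (SE 0.18, limma adjusted p = 0.0321) and *LUM* by 0.51 (SE 0.19, limma adjusted p = 0.0387). *BGN*, *FMOD* and *KERA* had differences of −0.42, −0.79 and −0.91 with limma adjusted p of 0.339, 0.159 and 0.292. With the authors' unscaled table *BGN* (−0.83, limma adjusted p = 0.0451) and *FMOD* (−1.20, limma adjusted p = 0.0170) were called, in a setting where the median of all probes was −0.39. *ASPN* alone was called in each alternative and in each fit without 1 array. The calls of *DCN*, *LUM* and *OGN* were lost in 5, 5 and 8 of the 21 fits without 1 array. Within single slides that held both stages of 1 breed, 18 of 21 differences of the 7 genes between 260 and 210 dpc were negative. *ASPN* gave −1.90, −1.09 and −1.09. The 21 values come from 3 pairs of arrays and are likewise not independent.

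With slide as a block in the fit, the differences between 260 and 110 dpc were −0.89 for *DCN*, −2.21 for *BGN*, −2.88 for *ASPN*, −1.63 for *LUM*, −2.64 for *FMOD*, −3.99 for *KERA* and −1.28 for *OGN*. All 7 remained called, with limma adjusted p between 5.49e-05 and 0.00703, and those of *FMOD* and *KERA* were over 1.5 times as large as without the block.

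No proteoglycan gene was called between the breeds. On average over the stages, 0 of the 7 tested members were called by limma, 0 at an unadjusted p under 0.05, against 0.358% of all tested probes called and 12.5% at an unadjusted p under 0.05. All 7 differences were negative, that is lower in BA, from −0.43 for *KERA* (95% interval −1.47 to 0.60) through −0.30 for *ASPN* (−0.78 to 0.17), −0.17 for *FMOD*, −0.15 for *BGN*, −0.11 for *OGN* and −0.10 for *LUM* to −0.012 for *DCN* (−0.29 to 0.27). Of all tested probes, 55.3% were lower in BA. *PRELP* gave 0.16 (95% interval −0.18 to 0.49). The interval was narrowest for *DCN* and widest for *KERA*, and a p above the threshold does not show that the breeds were alike.

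By stage, 0 of the 7 were called by limma at 110, 180, 210 or 260 dpc, 0 also at an unadjusted p under 0.05, where 0.273%, 0.00993%, 0% and 0% of tested probes were called and 13.8%, 6.17%, 5.24% and 5.34% had an unadjusted p under 0.05. At 180 dpc all 7 were lower in BA, with differences from −0.96 to −0.30 and a median of −0.54, whereas 50.6% of all tested probes were lower in BA. The arrays of the breeds did not overlap for *DCN*, *BGN* and *FMOD* at 180 dpc, a pattern in the same direction that 13.6% of tested probes had. For *FMOD* the 2 BA foetuses read 4.56 and 4.57 and the 3 CH foetuses 5.44, 4.59 and 6.52, so the groups were separate by a narrow gap between 4.57 and 4.59. CH replicate 3, the highest at 180 dpc for all 7 genes, was the only male at that stage. Without it all 7 remained lower in BA but the range was −0.48 to −0.077 and the median −0.32. *KERA* gave −0.077 in place of −0.96, *FMOD* −0.45 in place of −0.95, *DCN* −0.11 in place of −0.30, *ASPN* −0.21 in place of −0.50 and *BGN* −0.48 in place of −0.77. Without BA replicate 2 at 180 dpc, *OGN* gave −0.12 in place of −0.51. On slide 3, which held 1 array of each breed at 180 dpc, the 7 differences ran from −0.52 to −0.018. On the same slide at 110 dpc all 7 were lower in BA, from −1.68 to −0.41, whereas on slides 4 and 6 at 210 dpc 4 and 1 of 7 were lower, and on slides 2 and 4 at 260 dpc 3 and 2 of 7.

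At the other stages the direction was mixed, with 3 of 7 negative at 110 dpc (−0.35 to 0.50), 6 of 7 at 210 dpc (−0.39 to 0.20) and 3 of 7 at 260 dpc (−0.61 to 0.33), against 57.3%, 49.5% and 52.4% of all tested probes. These counts turned on single arrays, and the breeds were not balanced for sex. BA held 2 males and 1 female at 110 dpc, 1 and 2 at 210 dpc, and 0 and 2 at 260 dpc. CH held 0 males and 2 females at 110 dpc, 2 and 1 at 210 dpc, and 2 and 1 at 260 dpc. Breed and sex are therefore partly mixed at these stages. At 110 dpc all 7 were lower in BA without BA replicate 1, a male (−1.05 to −0.24). The count was 0 of 7 without BA replicate 2, the only BA female at that stage (0.022 to 1.12). At 210 dpc 3 of 7 were lower without CH replicate 3, and at 260 dpc the count ran from 0 of 7 without BA replicate 2 to 6 of 7 without CH replicate 1. The test of whether the change from 110 to 260 dpc differed between the breeds called 0 of the 7 by limma, 0 at an unadjusted p under 0.05, and 0% of all tested probes, of which 7.09% had an unadjusted p under 0.05. In BA the change was −0.41 for *DCN*, −1.88 for *BGN*, −2.05 for *ASPN*, −1.26 for *LUM*, −1.76 for *FMOD*, −2.65 for *KERA* and −1.01 for *OGN*. In CH it was −0.81, −1.35, −2.31, −1.62, −1.38, −1.82 and −0.89 in the same order. The change was negative for the 7 genes in each breed. Without BA replicate 1 at 110 dpc the BA values were −0.12, −1.14, −1.34, −1.07, −1.01, −1.60 and −0.57, still negative, and each was then smaller in size than in CH.

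Within a breed and stage, the foetuses differed from each other in the same way for 7 of the 8 genes. After the mean of each group was removed, the 21 pairs among *DCN*, *BGN*, *ASPN*, *LUM*, *FMOD*, *KERA* and *OGN* had Pearson correlations from 0.681 to 0.946 over the 21 arrays, with a median of 0.822 and a median Spearman rho of 0.730. All 21 passed an exact two-sided permutation test of arrays within groups, the largest adjusted p over the 28 pairs of the 8 genes being 0.0142. Across all 31145778 pairs of tested genes the median correlation was 0.0105, and 1.2% of pairs exceeded the lowest of the 21. Pairs of genes share arrays and are not independent of each other.

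**Figure D3:**
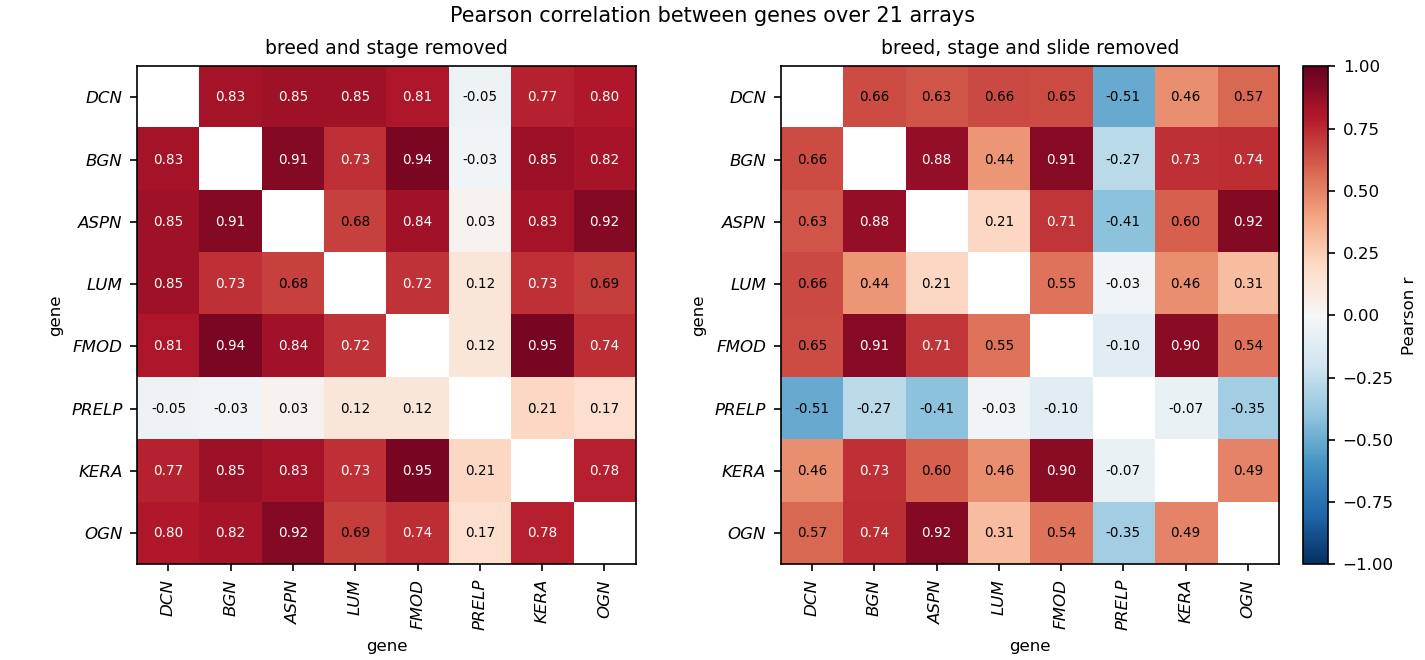
Pearson r between each pair of the 8 genes over 21 arrays, with breed and stage means removed (left) and with slide means removed as well (right), on a colour scale from −1 to 1. The 7 tested genes form 1 block with a lowest r of 0.68 on the left and of 0.21 on the right, and *PRELP* stands outside it.

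*FMOD* and *KERA* were the closest pair (r = 0.946, rho = 0.890, exact permutation adjusted p = 0.00225). *BGN* and *FMOD* followed (r = 0.940, rho = 0.943, exact permutation adjusted p = 0.000900), then *ASPN* and *OGN* (r = 0.921, rho = 0.786, exact permutation adjusted p = 0.00699) and *BGN* and *ASPN* (r = 0.915, rho = 0.760, exact permutation adjusted p = 0.00423). The loosest of the 21 was *ASPN* with *LUM* (r = 0.681, rho = 0.725, exact permutation adjusted p = 0.0132). The 7 pairs with *PRELP* ran from −0.047 to 0.208 and none passed.

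The correlation was present in each breed, with medians over the 21 pairs of 0.834 in BA and 0.835 in CH and lowest values of 0.622 and 0.705. When the 2 arrays farthest from the median of a pair's first gene were left out, usually BA replicates 1 and 2 at 110 dpc, the 21 values ran down to 0.501 with a median of 0.709. With slide removed as well as group, the median was 0.631. The lowest was then 0.207, for *ASPN* with *LUM*, while *ASPN* with *OGN* kept 0.918 and *BGN* with *FMOD* 0.913. Over all 28 pairs, *PRELP* included, the median was 0.775, with 0.545 when slide was a block and 0.445 among female foetuses alone.

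**Figure D4:**
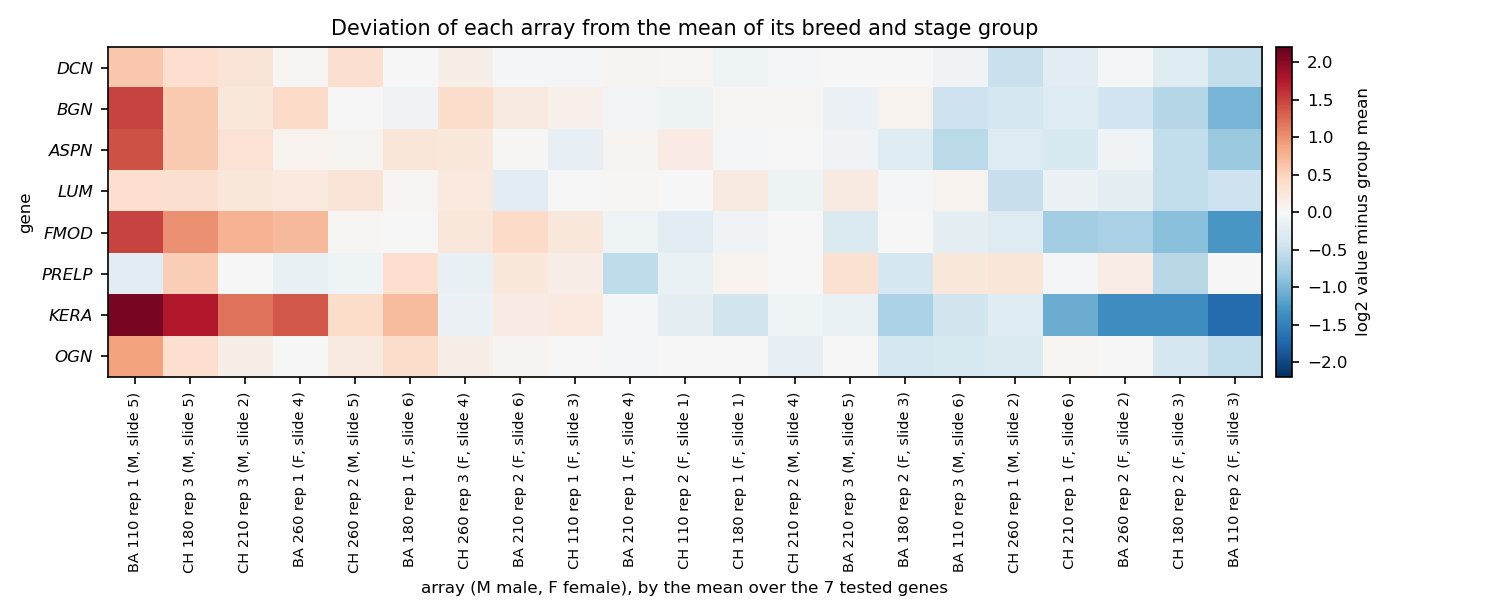
Deviation of each array from the mean of its breed and stage group (log2, colour scale) for the 8 genes (rows) and 21 arrays (columns), ordered by the mean deviation over the 7 tested genes, with sex and slide in the array names. BA 110 dpc replicate 1 stands at the high end with a mean of 1.19 and BA 110 dpc replicate 2 at the low end with −0.90, and 4 arrays are above and 4 below their group mean for all 7 genes.

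The 4 arrays above their group mean for all 7 genes were BA replicate 1 at 110 dpc (mean deviation 1.19, male), CH replicate 3 at 180 dpc (0.71, male), CH replicate 3 at 210 dpc (0.45, male) and BA replicate 1 at 260 dpc (0.41, female). Below the group mean for all 7 were BA replicate 2 at 110 dpc (−0.90, female), CH replicate 2 at 180 dpc (−0.66, female), BA replicate 2 at 260 dpc (−0.41, female) and CH replicate 1 at 260 dpc (−0.36, male). In a group of 2 arrays the deviations of the pair mirror each other, so BA at 260 dpc gives 1 array of each kind.

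Of the 4 arrays above their group means, 3 were of males. With breed and stage in the model, 0 of the 7 members were called between the sexes by limma, against 0.0695% of tested probes, and 1, *KERA*, had an unadjusted p under 0.05, as had 8.36% of tested probes. All 7 differences were higher in males, from 0.22 for *OGN* to 1.36 for *KERA* (95% interval 0.26 to 2.46, limma adjusted p = 0.509), while 52.9% of all tested probes were lower in males. Slide 5, which held no female, carried the 2 highest arrays. With slide as a block, 6 of the 7 turned negative, at −0.64 for *ASPN*, −0.59 for *OGN*, −0.40 for *BGN*, −0.18 for *DCN*, −0.072 for *LUM* and −0.0058 for *FMOD*, and *KERA* was 0.067. Sex and slide cannot be told apart on the slides that held 1 sex.

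The genes lie in known clusters of the cattle genome. In the RefSeq annotation of ARS-UCD2.0, *EPYC*, *KERA*, *LUM* and *DCN* follow each other on chromosome 5 with no protein-coding gene between them, *OGN*, *OMD*, *ASPN* and *ECM2* on chromosome 8, and *FMOD*, *PRELP* and *OPTC* on chromosome 16, while *BGN* is on chromosome X. The 4 pairs of tested members within a cluster had a median correlation of 0.811 and the other 17 pairs 0.822. *FMOD* and its neighbour *PRELP* had a correlation of 0.122.

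The genes outside the family whose arrays varied most like the 7 were *POSTN* (periostin, a fibroblast matrix protein) with a median correlation of 0.902, *LOX* (lysyl oxidase, which cross-links collagen) with 0.899, *SRPX* with 0.896, *TIMP1* (an inhibitor of matrix metalloproteinases) with 0.885 and *KCNMB4* (a potassium channel subunit) with 0.883. The median over 7886 ranked genes was −0.054, and 154 genes exceeded 0.7. These 5 genes also fell from 110 to 260 dpc, *POSTN* by 4.37, *KCNMB4* by 1.47, *SRPX* by 1.22, *LOX* by 1.11 and *TIMP1* by 0.86. Over the 8 group means the closest genes were *LIMS1* and *RIN2* for *DCN* (r = 0.983 and 0.982), *P3H1* and *PLXDC2* for *BGN* (0.995 and 0.983), *XBP1* and *MXRA8* for *ASPN* (0.994 and 0.993), and *HP1BP3* and *AP3B1* for *LUM* (0.996 and 0.987). For *FMOD* they were *GFPT1* and *COL2A1* (0.990 and 0.985), and for *OGN* *SAR1A* and *KCNMB4* (0.993 and 0.989). These are the highest values among all ranked genes, over only 8 points, and are given as a description.

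Collagens, the main partners of these proteoglycans, mostly fell over the same interval. Of 6 tested fibril-forming and fibril-associated collagens, 5 fell from 110 to 260 dpc and 0 rose, with a median difference of −0.93. Of all tested probes, 30.8% were called lower and 64.1% in either direction. The counts of this and the following lists are a description and were not tested against these shares. *COL11A1* fell by 3.70, *COL12A1* by 3.02 and *COL1A2* by 0.99, while *COL1A1* gave −0.25 (limma adjusted p = 0.297). Within groups 4 of the 6 had a median correlation with the 7 members above 0.5, *COL12A1* (0.861), *COL1A1* (0.849), *COL11A1* (0.847) and *COL1A2* (0.789), a level that 7.10% of all genes exceeded. Of 12 tested collagen-processing enzymes 10 fell and 0 rose, led by *LOXL1* (by 1.68), *PLOD2* (a lysyl hydroxylase, by 1.56) and *LOXL3* (by 1.32). Of these 12, 8 correlated above 0.5, with a median over the list of 0.678. The filter leaves out genes that are dim in more than 1 group. In the fit of all probes *PCOLCE2* rose by 3.85 (limma adjusted p = 5.09e-07) and *LOXL4* by 2.15 (limma adjusted p = 7.05e-05). Both were well above background on all 21 arrays. *TLL1* gave −0.89 in that fit (limma adjusted p = 0.0163) but was well above background on only 2 arrays. These and the other genes given from that fit were named after their values were seen.

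**Figure D5:**
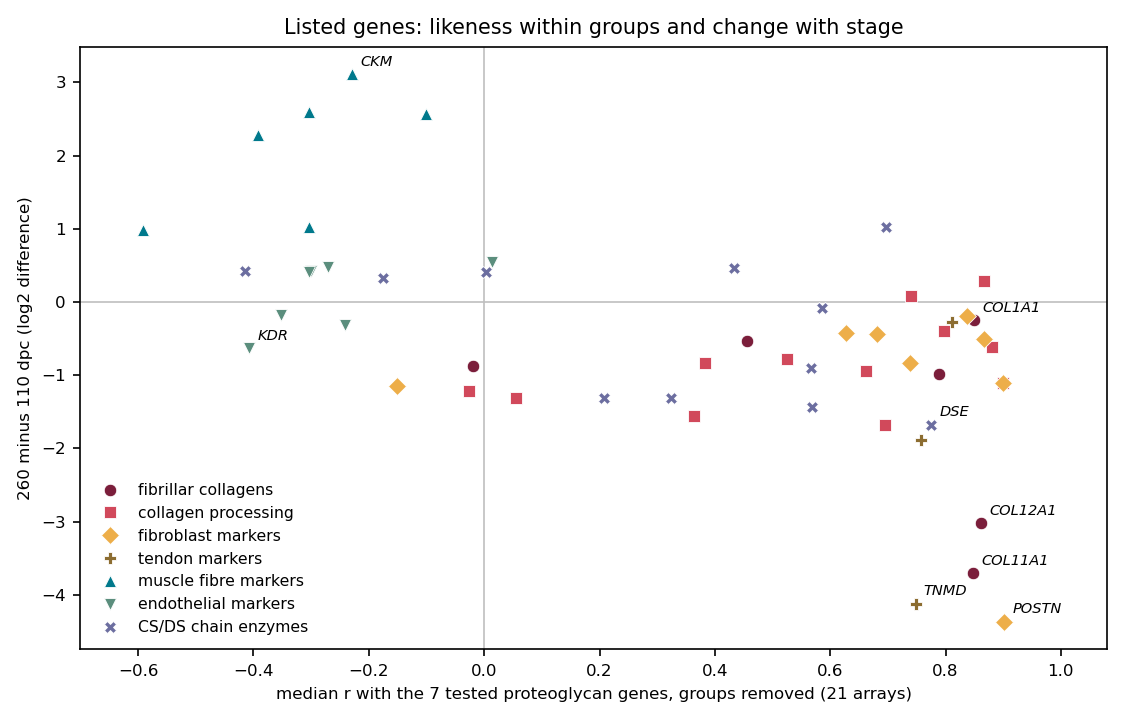
Genes of 7 lists by their median correlation with the 7 tested proteoglycan genes after breed and stage were removed (horizontal axis) and by their log2 difference between 260 and 110 dpc (vertical axis), with 1 symbol per gene. Collagens, collagen-processing enzymes and fibroblast and tendon markers lie mostly to the right and below 0, and the muscle fibre markers lie to the left and above 0.

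The enzymes that build the sugar chains did not move one way. Of 11 tested enzymes of chondroitin and dermatan sulphate synthesis, 5 fell and 4 rose. Of all tested probes, 64.1% were called in either direction and 30.8% lower. *DSE*, an epimerase that turns chondroitin into dermatan sulphate, fell by 1.68, *CHPF* (chondroitin polymerising factor) by 1.43 and *CSGALNACT1*, which starts the chain, by 1.31. *CSGALNACT2* rose by 1.02, *DSEL* by 0.43 and *CHST7* by 0.41. Under the filter, in the fit of all probes, *CHST3* fell by 1.55 (limma adjusted p = 9.94e-06). In that fit *FAM20B* and *B4GALT7* fell by 0.53 and 0.51 (limma adjusted p = 0.0449 and 0.00632). *DSE* varied within groups like the core proteins (median correlation 0.775) and so did *CSGALNACT2* (0.697), although the latter rose with stage. For keratan sulphate 2 of 3 tested enzymes fell, *B4GALT4* by 2.17 and *CHST2* by 0.82, and *CHST1* gave −0.16 (limma adjusted p = 0.367).

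Other family members were mostly dim. Of 7 with a probe, 2 passed the filter, and *TSKU* (tsukushi) fell by 0.89, while *ECM2* gave 0.031 (limma adjusted p = 0.91). Both varied within groups like the 7, with median correlations of 0.711 and 0.776. In the fit of all probes *CHAD* (chondroadherin) rose by 2.96 (limma adjusted p = 9.11e-08) and *PODN* (podocan) by 2.17 (limma adjusted p = 0.00139), both under the filter. *CHAD* was well above background on 21 arrays and *PODN* on 17, and the BA mean of *PODN* at 110 dpc was −3.67.

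In the transforming growth factor beta list, 4 of 8 tested genes fell and 1 rose, where 64.1% of all tested probes were called and 30.8% called lower. *TGFB3* fell by 1.65, *TGFB2* by 1.33 and the latent binding protein *LTBP3* by 1.31, and the receptor *TGFBR2* rose by 0.34. *TGFB3* and *LTBP3* varied within groups like the proteoglycans (0.831 and 0.809), whereas *TGFB2* did not (−0.157). Of 4 tested receptors that bind these proteoglycans, *KDR* fell by 0.63, *ITGB1* fell by 0.47, *MET* rose by 1.41 and *TLR2* gave 0.27 (limma adjusted p = 0.0816). Of 4 tested proteases that can cleave them, *ADAMTS4* fell by 1.33, *MMP2* by 1.02 and *ADAMTS5* by 0.83, and *ADAMTS1* gave −0.17 (limma adjusted p = 0.208). Under the filter, in the fit of all probes, the protease *MMP14* fell by 2.30 (limma adjusted p = 1.55e-06). In that fit the receptor *TLR4* rose by 1.69 (limma adjusted p = 1.17e-05) and *IGF1R* fell by 1.04 (limma adjusted p = 2.23e-05). *LTBP2* and *TGFBR1* fell by 0.97 and 0.49 (limma adjusted p = 0.0254 and 0.025). In none of the lists was a tested gene called for the mean breed difference, for which 0.358% of all tested probes were called.

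Markers of connective tissue cells mostly had lower values at 260 than at 110 dpc. Of 8 tested fibroblast markers 5 fell from 110 to 260 dpc and 0 rose, against 30.8% of all tested probes called lower. Among those that fell were *POSTN*, *TCF7L2* (by 1.15) and *LOX*. Within groups 7 of the 8 correlated above 0.5 with the 7 genes, the exception being *TCF7L2* (−0.151). *DPT*, *FBN1* and *FBLN1* were not called (−0.51, −0.44 and −0.19, with limma adjusted p of 0.0658, 0.0537 and 0.585). Under the filter, in the fit of all probes, *PDGFRB* rose by 0.66 (limma adjusted p = 0.0260) and *PDPN* fell by 2.12 (limma adjusted p = 2.82e-07). *LOX* is also in the list of collagen-processing enzymes. Their summed log2 level was 29.95 to 40.42 in BA and 34.88 to 35.84 in CH at 110 dpc, 30.67 to 32.49 and 32.18 to 38.14 at 180 dpc, 29.59 to 30.23 and 30.28 to 34.01 at 210 dpc, and 24.55 to 27.65 and 23.22 to 27.91 at 260 dpc. The ranges at 110 and 260 dpc did not overlap in either breed. *POSTN* had the largest fall of the tested markers in this sum (4.37), and the sum without it was not taken. The tendon list had 3 tested markers, of which *TNMD* (tenomodulin) fell by 4.12 and *CILP2* by 1.88 and *THBS4* gave −0.27 (limma adjusted p = 0.456), and their median correlation with the 7 genes was 0.757. Their summed level ran from 8.90 to 20.56 in BA and 11.62 to 14.58 in CH at 110 dpc and from 5.55 to 10.66 and 6.53 to 7.09 at 260 dpc, so the 2 stages overlapped in BA. The tendon marker *MKX*, under the filter, fell by 2.12 in the fit of all probes (limma adjusted p = 0.00147). *COMP*, the other tendon marker under the filter, gave 0.215 in that fit (limma adjusted p = 0.5). *COL2A1*, the only tested cartilage marker, fell by 3.77 and had a median correlation of 0.806.

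Markers of muscle fibres went the other way. All 6 tested rose, *CKM* by 3.11, *TNNT3* (fast troponin T) by 2.59 and *ACTA1* by 2.57. By comparison, 64.1% of all tested probes were called in either direction and 30.8% lower. The median correlation of the 6 markers with the 7 genes within groups was −0.304, against −0.054 over all ranked genes. Of the 6 markers, 0 were above 0.5. Their summed log2 level was 44.10 to 46.52 in BA and 46.21 to 46.57 in CH at 110 dpc and 57.53 to 59.05 and 57.22 to 59.14 at 260 dpc. Of 7 endothelial markers 4 rose and 1 fell (median correlation −0.300), where 64.1% of all tested probes were called in either direction and 30.8% lower. Schwann cell markers had 3 of 4 rising, leukocyte markers 1 of 5 rising and 2 falling, adipocyte markers 1 of 3 rising and 1 falling, and red cell markers 2 of 3 falling. Under the filter, in the fit of all probes, *CIDEC* (adipocyte) rose by 2.97 and *CD3E* (leukocyte) by 3.21 (limma adjusted p = 0.0315 and 0.000478). They were well above background on 16 and 13 arrays. The red cell markers *HBM* and *ALAS2* fell by 1.85 and 2.37 (limma adjusted p = 0.0066 and 0.000224). No cell type marker with a probe was below background on all 21 arrays. The part of cell composition in the fall of the proteoglycan genes, and in the differences between foetuses of a group, was not tested.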

How the data were processed

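Single-colour arrays of 21 foetal muscle samples were analysed, 1 per foetus. The authors labelled total RNA with Cy3 and extracted spots with Agilent Feature Extraction 10.7. Their deposited intensity values were detrended within the array, with no background subtraction and no scaling between arrays, and their deposited log2 value table held 649571 of 649670 values within 0.01 of the log2 of these intensity values. The build of the array design differs from that of the annotation used for names (ARS-UCD2.0), so no positions are given.

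Control spots and 258 outlier spots were left out, spots of a probe averaged, and each array's 75th percentile was subtracted on the log2 scale. A constant of 2.69, the median gap between the 75th percentile and the median of an array, was then added, so 0 lies near the median probe. Of 43653 probes, 26628 were named, and the 20132 probes above 0 in at least 7 of 8 groups were tested. Breed-by-stage groups entered 1 linear model (limma 3.58.1, R 4.3.3; 13 residual and 3.79 prior degrees of freedom), without blocks. The p-values were adjusted by Benjamini-Hochberg. Sex was tested with the groups in the model. Correlations used group-centred values and 62208 exact permutations within groups. Named were all 8 members, up to 3 called genes per list and direction, and the most alike genes, of which those of *KERA* over the group means are not reported here. No array duplicated another. Replicate numbers did not pair arrays. The methods were tested on simulated data. The members and lists were chosen with earlier results of these data known. Alternatives covered background correction, normalization, the authors' table, filters, sex, slide, replicate and sire blocks, the variance model and leaving out each array. The number of arrays limits the precision.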

Additional observations from a re-analysis of the deposited data

How the results depend on the processing

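The fall of the 7 genes from 110 to 260 dpc kept its direction in all 13 alternatives and all 21 fits without 1 array. The sizes moved, from −0.28 (females only) to −1.16 (quantile normalization) for *DCN*, from −0.83 (mean of the tested probes) to −2.21 (slide as a block) for *BGN*, and for *OGN* from −0.62 (females only) to −1.34 (authors' table). The number of the 8 members called in either direction lay between 5 and 8. The 8 came with normexp background correction, where *PRELP* was called as higher at 260 dpc. *PRELP* gave −0.095 with the authors' value table, and 0.0071 for 260 against 210 dpc with normexp background correction. From 110 to 180 dpc, 0 members were called with median scaling, the authors' table, no filter, a detection filter, sex as a covariate or females only, 2 with slide as a block, and 0 to 2 without 1 array. There *DCN* was 0.019 with median scaling, 0.017 with the authors' table, 0.044 with sex as a covariate and 0.16 in females, where *ASPN* was 0.17. Without 1 array *DCN* ran from −0.13 to 0.14 and *ASPN* from −0.30 to 0.26. From 180 to 210 dpc, 1 was called in females and 1 with slide as a block, and 0 to 1 without 1 array. From 210 to 260 dpc, 1 was called with median scaling and 1 with no filter, 2 with sex as a covariate and 2 in females, and 1 to 4 without 1 array. No breed or sex comparison called a member in any alternative. The mean breed difference of *DCN* was 0.039 with quantile normalization, 0.043 with the authors' table, 0.037 with sex as a covariate and −0.085 to 0.053 without 1 array, and that of *FMOD* was −0.36 to 0.010 without 1 array. The sex differences with slide as a block were −0.18 for *DCN*, −0.40 for *BGN*, −0.64 for *ASPN*, −0.072 for *LUM*, −0.0058 for *FMOD* and −0.59 for *OGN*. The median correlation of the 28 pairs was 0.445 in females and 0.545 with slide as a block. The causes were not tested. With the authors' unscaled table the median of all probes shifted by −0.35 between 260 and 110 dpc, and with median scaling by 0.14.

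Arrays with the same replicate number did not deviate together (median correlation 0.0275 over 66 pairs of arrays, −0.0031 over 126 others), so the numbers do not pair the foetuses. With the replicate block the mean breed difference of *DCN* was 0.0059.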
